A study of Mus musculus with 9 samples.

Results

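Messenger RNA levels of 10 genes of the endoplasmic reticulum (ER) folding machinery and the unfolded protein response were examined in the livers of mice conceived naturally or by assisted reproduction. The genes were chosen by name from known function, with earlier results of these data known: the chaperones Hspa5, Hsp90b1 and Calr, the protein disulfide isomerases Pdia3, Pdia4 and Pdia6, the transcription factors Xbp1, Atf4 and Ddit3, and the ER membrane protein Herpud1. All 10 were found among the 55335 identifiers of the deposited table, and all 10 were among the 6755 genes whose mean FPKM over the 9 mice was at least 1, which were the genes tested. FPKM is the number of sequenced fragments divided by transcript length and by the size of the library, so levels of different genes can be set side by side on this scale.

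The livers came from mice of the strain given as B6D2F2, aged 20 weeks and fasted for 4 h, with 3 mice in each of 3 groups. NC-chow mice were naturally conceived, IVF-chow mice came from in vitro fertilization with fresh transfer (IVF-ET), and FET-chow mice came from in vitro fertilization with freezing and thawing of the embryo before transfer (IVF-FET). According to the methods, all mice were male and chow-fed, the frozen embryos were 2-cell embryos preserved by slow freezing, and the embryos of both IVF groups were carried by ICR recipients, so transfer into a foster strain separates both of these groups from NC-chow and cannot be told apart from the in vitro procedure. The labels number the mice 1, 5 and 6 in NC-chow and 2, 3 and 4 in the other two groups. The labels also carry sheet numbers, 67 for NC-chow mouse 1 and 71 to 76 for the mice of the other groups, while NC-chow mice 5 and 6 carry neighbouring numbers far above these. What they stand for is not given, and their part in the comparisons with NC-chow was not tested. With NC-chow mouse 1 as the only control, the log2 fold changes of all 10 genes in FET-chow mice were negative, from -2.55 (Hspa5) to -0.68 (Calr). With all NC-chow mice, 74.3% of all tested genes were negative in FET-chow mice, and without NC-chow mouse 1 the value of Xbp1 was 0.47. In IVF-chow mice, the signs of Xbp1, Atf4 and Herpud1 turned with NC-chow mouse 1 as the only control. Nothing in the labels says whether mice of a group came from separate litters, and p-values then measure only the spread between these mice.

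Proteins bound for secretion are folded in the ER, and hepatocytes, which make most plasma proteins, carry a large ER for this task. When unfolded proteins build up, ER membrane sensors start the unfolded protein response: the sensor IRE1 (encoded by Ern1) lets Xbp1 mRNA be spliced into its active form, the sensor PERK favours the translation of Atf4, and ATF6 is cut to release a transcription factor. These factors raise chaperones, disulfide isomerases and ER-associated degradation, and prolonged activity induces CHOP, the product of Ddit3. Gene-level FPKM shows neither Xbp1 splicing nor the translation of Atf4.

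Several of these genes are known to respond to ER stress through a promoter sequence called the ER stress response element (ERSE), which reads CCAAT, any 9 bases and CCACG. The windows from 250 bases before to 50 bases after the start of 32851 genes (RefSeq, GRCm38.p6) were searched on both strands. The ERSE was found in 39 of them, or 0.119%, and 4 of the 10 genes were among these: Hspa5, Hsp90b1, Calr and Pdia6. A related element, ERSE-II, which reads ATTGG, any base and CCACG, stood in 12 windows, or 0.037%, that of Herpud1 included. The sites are shown because they are the sequence feature that these members share. Each is printed 5′ to 3′ on the strand of its gene, 30 bases long, with the fixed letters of the element in capitals. Calr and the first Hsp90b1 site carry the element on the opposite strand, so that its complement is read here.
Hspa5 (chr2:34772020-34772049, plus strand, ERSE): cttcaCCAATcggaggcctCCACGacgggg
Hsp90b1 (chr10:86705527-86705556, minus strand, ERSE read as its complement): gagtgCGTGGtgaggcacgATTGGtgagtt
Hsp90b1 (chr10:86705632-86705661, minus strand, ERSE): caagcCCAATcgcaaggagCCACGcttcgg
Calr (chr8:84847069-84847098, minus strand, ERSE read as its complement): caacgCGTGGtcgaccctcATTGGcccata
Pdia6 (chr12:17266486-17266515, plus strand, ERSE): agagaCCAATgaaaggcggCCACGgcgtgg
Herpud1 (chr8:94386368-94386397, plus strand, ERSE-II): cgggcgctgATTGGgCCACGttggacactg

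Distances count from the RefSeq start of each gene, which can differ from that of the GENCODE spans printed below, and the Hspa5 element lies inside its GENCODE span. The Hspa5 element begins 65 bases before that RefSeq start, that of Pdia6 98 bases and that of Calr 162 bases, while Hsp90b1 has 1 at 107 and 1 at 212 bases. The Herpud1 window also held TTGCATCA, the letters searched for the C/EBP-ATF response element bound by ATF4, which stood in 294 windows (0.895%). The core of the unfolded protein response element, TGACGTGG, stood in 222 windows (0.676%) and in none of the 10. A match is a run of letters and was not tested for binding, and a missing match says only that these letters are not in this window.

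The depth behind the values was uneven. An estimate from the spacing of low FPKM values, where 1 fragment is a fixed step, came to between 2020000 and 2930000 mapped fragments in the FET-chow livers, 3900000 and 8430000 in the IVF-chow livers and 6610000 and 13360000 in the NC-chow livers, so that every FET-chow library was smaller than every other library. Nuclear protein-coding genes held between 4.36% of the summed FPKM (IVF-chow mouse 2) and 29.3% (IVF-chow mouse 4), which moves the FPKM of most genes of a library together. The main results are therefore also given after median-ratio scaling, which divides a library by its median ratio to the other libraries over 5218 protein-coding genes, with factors from 0.370 (IVF-chow mouse 2) to 2.05 (IVF-chow mouse 4). This scaling moved the median log2 fold change of all tested genes from -0.46 to -0.10 in FET-chow against NC-chow and from -0.25 to 0.01 in IVF-chow against NC-chow. The livers carried hepatocyte RNA: the summed FPKM of 9 hepatocyte markers, all above 0 in every group, was between 20085 and 34961 in NC-chow, 5604 and 55638 in IVF-chow and 7779 and 27462 in FET-chow mice. In bulk tissue, fewer cells of a type and less RNA per cell cannot be told apart.

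The fitted level of each of the 10 genes was lower in FET-chow than in NC-chow livers, with Hspa5, Herpud1 and Atf4 at the far end and Calr and Xbp1 near 0. None of them passed the adjusted threshold of 0.05 in limma with Benjamini-Hochberg adjustment over all tested genes, where 16 genes, or 0.237%, passed. At an unadjusted p under 0.05, 4 of the 10 were counted (Hspa5, Herpud1, Atf4 and Pdia4), against 12.0% of all genes. The FPKM of every FET-chow mouse lay below that of every NC-chow mouse in 7 of the 10, namely Hspa5, Hsp90b1, Pdia3, Pdia6, Atf4, Ddit3 and Herpud1, against 17.1% of all genes. After median-ratio scaling this held for Hspa5, Pdia3 and Herpud1, against 12.7% of all genes. The median log2 fold change of the 10 genes was -1.57, where that of all genes was -0.46 and 74.3% of all genes had a negative value. With the scaling, it was -1.05 against -0.10, and 8 of the 10 were negative, against 55.8% of all genes, Calr and Xbp1 having turned positive.

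**Figure D1:**
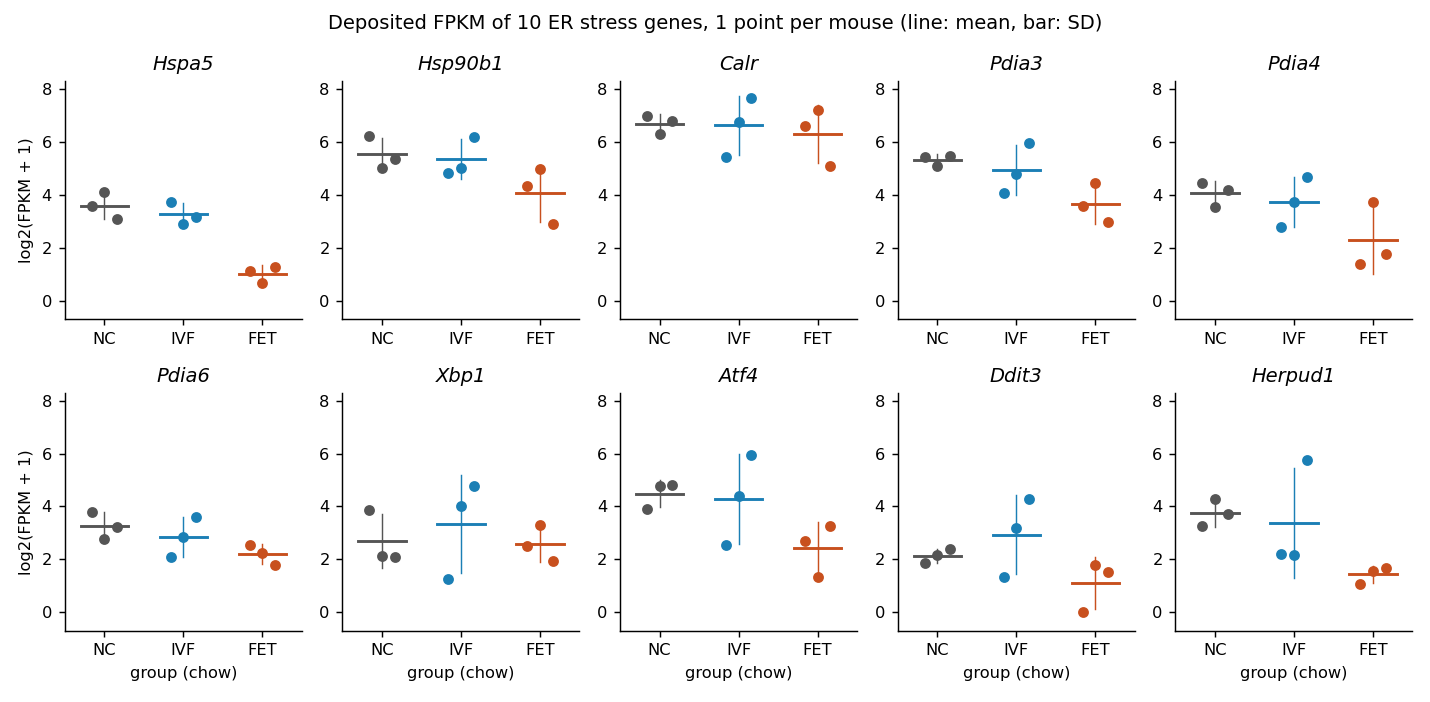
Deposited FPKM of the 10 genes on a log2(FPKM + 1) axis, with 1 point for each of the 3 mice of a group, the mean as a horizontal line and the SD as a vertical bar. The FET-chow points of Hspa5 and Herpud1 lie below all points of both other groups, while the groups overlap in Calr and Xbp1.

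Hspa5 (ENSMUSG00000026864, chr2:34771970-34777547 in GRCm38) encodes BiP, the ER form of HSP70, which binds unfolded chains and holds the sensors inactive. Its FPKM was 10.8, 16.2 and 7.58 in NC-chow mice 1, 5 and 6, then 12.3, 6.51 and 7.84 in IVF-chow mice 2, 3 and 4, whereas FET-chow mice 2, 3 and 4 had 1.19, 0.580 and 1.39. The NC-chow and IVF-chow values overlapped, and each FET-chow mouse lay below all of them. The mean was 11.5 ± 4.33 (SD, n = 3) for NC-chow, 8.88 ± 3.03 (SD, n = 3) for IVF-chow and 1.05 ± 0.423 (SD, n = 3) for FET-chow livers. The log2 fold change in FET-chow was -2.57 against NC-chow (limma, SE 0.73, adjusted p = 0.0924) and -2.25 against IVF-chow (limma, SE 0.73, adjusted p = 0.639). After median-ratio scaling, the 3 FET-chow mice had 1.04, 0.465 and 2.71, and the lowest value elsewhere was 3.82 in IVF-chow mouse 4, so that the groups did not meet on this scale either. The scaled log2 fold changes were -2.07 and -2.20 (adjusted p = 0.217 and 0.385, limma). The FET-chow values rested on an estimated 10, 7 and 17 fragments, against at least 302 in an NC-chow and 124 in an IVF-chow mouse.

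Hsp90b1 (ENSMUSG00000020048, chr10:86690209-86705509) encodes GRP94, the ER form of HSP90, which folds integrins and Toll-like receptors. Its FPKM was 72.9, 31.6 and 39.8 in NC-chow mice 1, 5 and 6, then 27.3, 31.7 and 72.4 in the IVF-chow group, and 19.2, 30.1 and 6.35 in the FET-chow group. FET-chow mouse 3 was within 2 FPKM units of NC-chow mouse 5, so the gap between these groups was narrow, and after the scaling it closed (FET-chow mouse 3 at 24.2 and NC-chow mouse 5 at 21.8). The log2 fold change in FET-chow was -1.47 against NC-chow (limma, SE 0.997, adjusted p = 0.576) and -0.95 on the scaled values, and it was -0.88 in FPKM without FET-chow mouse 4. Annotated exons of the pseudogene 1810014B01Rik on the opposite strand overlap 415 bases, or 10.3%, of those of Hsp90b1. As strand use is not given in the sources used here, the reads of such partners cannot be told apart, though the pseudogene itself reached no more than 1.26 FPKM. The miRNA entry Gm25745, on the same strand, shares 133 bases (3.3%) and reached up to 10.3 FPKM.

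Calr (ENSMUSG00000003814, chr8:84841850-84846934), which encodes calreticulin, the lectin chaperone of newly made glycoproteins and a calcium store of the ER, had the highest mean of the 10 genes in each group. Its FPKM was 125, 77.0 and 109.9 in NC-chow, 42.5, 108.0 and 202 in IVF-chow, and 95.7, 148 and 32.7 in FET-chow mice. The 3 groups overlapped throughout, with IVF-chow mouse 4 the highest and FET-chow mouse 4 the lowest mouse. Its log2 fold change in FET-chow against NC-chow was -0.39 (SE 1.08, 95% confidence interval -2.56 to 1.79), and it was 0.16 after the scaling, so that its sign depends on the scale. Although Calr and Hspa5 both carry the ERSE shown above, the Calr value thus lay near the median of all genes and the Hspa5 value far below it, a difference between the 2 genes that was not tested.

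Among the disulfide isomerases, which form and reshuffle disulfide bonds, Pdia3 was the most abundant of the 3 members. Pdia3 (ENSMUSG00000027248, chr2:121413775-121438687) encodes ERp57, the partner of calreticulin and calnexin. Its FPKM was 42.0, 33.0 and 43.0 in NC-chow, 15.8, 26.5 and 61.2 in IVF-chow, and 10.98, 20.7 and 6.75 in FET-chow mice. All FET-chow mice were below all NC-chow mice, whereas IVF-chow mouse 2 lay within the FET-chow range. After median-ratio scaling the values were 43.3, 22.8 and 25.9 in NC-chow, 42.7, 22.5 and 29.9 in IVF-chow, and 9.64, 16.6 and 13.1 in FET-chow mice, and the FET-chow group stood below both others. Its log2 fold change against NC-chow was -1.67 (limma, SE 0.96, adjusted p = 0.494), and -1.14 after the scaling (limma, SE 0.38, adjusted p = 0.217).

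Pdia4 (ENSMUSG00000025823, chr6:47796141-47813430), which encodes ERp72, was uneven within the FET-chow group. Its FPKM was 20.9, 10.7 and 17.2 in NC-chow, 5.94, 12.1 and 24.7 in IVF-chow, and 1.59, 12.2 and 2.35 in FET-chow mice. FET-chow mouse 3 lay above NC-chow mouse 5, and the other two FET-chow mice lay below every mouse of both groups. Against NC-chow the log2 fold change was -1.78 (limma, SE 0.85, adjusted p = 0.397), and the scaled one was -1.298. Estimated fragments behind the FET-chow values of Pdia4 were 8, 83 and 17. Pdia6 (ENSMUSG00000020571, chr12:17266545-17284770), which encodes P5, an isomerase that works beside BiP, had FPKM values between 5.82 and 12.8 in NC-chow, 3.27 and 11.1 in IVF-chow, and 2.49 and 4.84 in FET-chow mice. The NC-chow and FET-chow groups did not meet, by a gap of under 1 FPKM unit, and the log2 fold change was -1.07 (limma, SE 0.75, adjusted p = 0.596). After the scaling it was -0.61 and the groups overlapped.

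**Figure D2:**
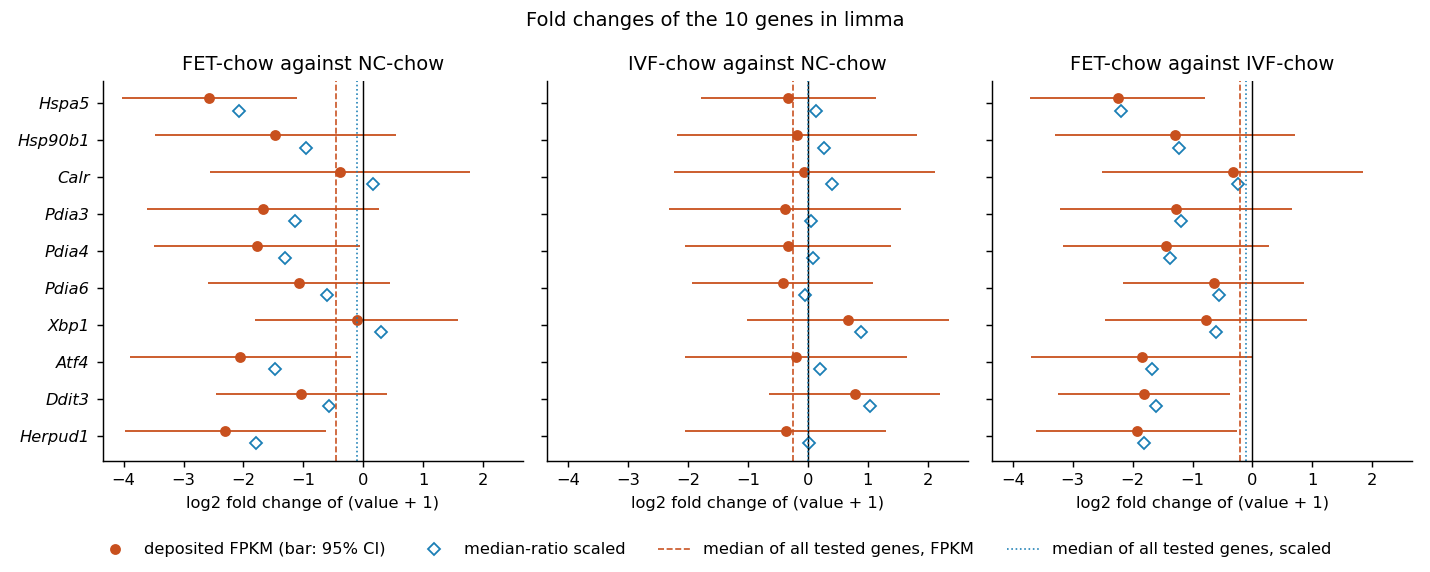
Log2 fold changes of the 10 genes in limma for the 3 comparisons, on deposited FPKM (filled circles, with 95% confidence intervals) and after median-ratio scaling (open diamonds), with the medians of all tested genes as broken lines. The intervals of Hspa5, Herpud1 and Atf4 lie left of 0 in both comparisons of FET-chow. Those of Pdia4 against NC-chow and of Ddit3 against IVF-chow do so as well, while in IVF-chow against NC-chow all 10 intervals span 0.

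Of the 3 transcription factors, Atf4 and Ddit3 had FET-chow values below all NC-chow values in FPKM, and Xbp1 had overlapping groups. Xbp1 (ENSMUSG00000020484, chr11:5520659-5525893), the effector of the IRE1 arm, had an FPKM of 13.5, 3.35 and 3.26 in NC-chow mice 1, 5 and 6, then 1.40, 15.1 and 26.7 in IVF-chow, and 4.63, 8.83 and 2.83 in FET-chow mice. NC-chow mouse 1 was high among the controls and IVF-chow mouse 2 held the lowest value of all, so that the groups overlapped on all sides. The log2 fold change in FET-chow against NC-chow was -0.11 (SE 0.84, 95% confidence interval -1.80 to 1.57), and it was 0.29 after the scaling and 0.47 without NC-chow mouse 1.

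Atf4 (ENSMUSG00000042406, chr15:80255184-80257541), the effector of the PERK arm that drives amino acid supply, had an FPKM of 13.9, 26.1 and 26.7 in NC-chow, 4.80, 20.0 and 60.1 in IVF-chow, and 5.54, 1.53 and 8.57 in FET-chow mice. Every FET-chow mouse lay below every NC-chow mouse, and IVF-chow mouse 2 lay within the FET-chow range. After median-ratio scaling, FET-chow mouse 4 reached 16.6, inside the NC-chow range of 14.3 to 18.04, while the other two FET-chow mice had 4.87 and 1.23. On FPKM its log2 fold change against NC-chow was -2.05 (limma, SE 0.92, adjusted p = 0.358), and -1.48 after the scaling (adjusted p = 0.287 in limma). Estimated fragments behind the FET-chow values of Atf4 were 26, 10 and 59.

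Ddit3 (ENSMUSG00000025408, chr10:127290774-127296288), which encodes the pro-apoptotic factor CHOP, had the lowest mean of the 10 genes in NC-chow livers. Its FPKM was 2.63, 3.52 and 4.24 in NC-chow, 1.49, 8.08 and 18.3 in IVF-chow, and 0, 2.45 and 1.91 in FET-chow mice, the value of FET-chow mouse 2 being listed at 0. The NC-chow values were close together, the IVF-chow values enclosed them and the FET-chow values lay just below them. The log2 fold change in FET-chow was -1.03 against NC-chow (limma, SE 0.71, adjusted p = 0.584), and -0.57 after the scaling, where the groups overlapped. Without FET-chow mouse 2 it was -0.48, and with 0.1 added in place of 1 it was -2.13. The FET-chow values rested on an estimated 0, 12 and 10 fragments. The exons of Mars on the opposite strand share 68 bases with Ddit3, or 4.0% of its exons, and Mars reached up to 8.88 FPKM.

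Herpud1 (ENSMUSG00000031770, chr8:94386438-94395377), whose ERSE-II is shown above, encodes an ER membrane protein that helps assemble the HRD1 ubiquitin ligase complex for degradation of misfolded proteins. Its FPKM was 8.52, 18.4 and 12.0 in NC-chow, 3.62, 3.43 and 53.4 in IVF-chow, and 1.11, 1.96 and 2.21 in FET-chow mice. The FET-chow mice were below all 6 other mice, and IVF-chow mouse 4 stood far above the rest of its group. The log2 fold change in FET-chow was -2.30 against NC-chow (limma, SE 0.83, adjusted p = 0.251) and -1.93 against IVF-chow (limma, SE 0.83, adjusted p = 1), the latter being -0.74 without IVF-chow mouse 4. After median-ratio scaling, the FET-chow mice had 0.971, 1.57 and 4.30, below the NC-chow range of 7.25 to 12.7, but IVF-chow mouse 3, at 2.91, lay within the FET-chow range. The FET-chow values rested on an estimated 5, 13 and 15 fragments.

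**Figure D3:**
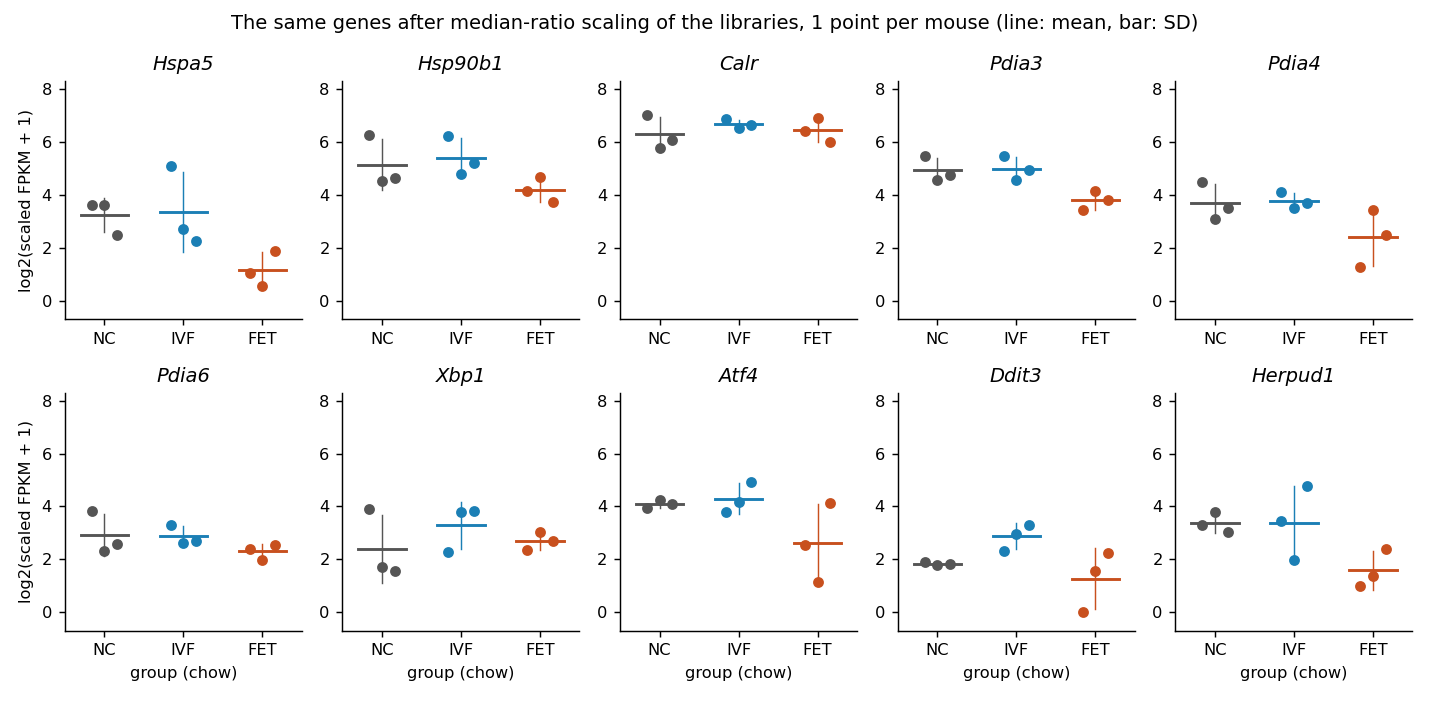
The same 10 genes after median-ratio scaling of the libraries, on a log2(scaled FPKM + 1) axis, with 1 point per mouse, the mean as a line and the SD as a bar. The FET-chow points of Hspa5 and Pdia3 lie below all points of both other groups on this scale, and the 3 IVF-chow points of Ddit3 lie above the 3 NC-chow points.

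FET-chow and IVF-chow embryos differed, by the labels and methods, in the freezing and thawing. By the methods this includes cryoprotectants, storage in liquid nitrogen and a further culture step before transfer, which cannot be told apart here. Every FET-chow library was also smaller than every IVF-chow library, and the part of depth in this comparison was not tested. Between these groups the fitted values of all 10 genes were again negative, with a median of -1.37 where that of all genes was -0.20 and 65.4% of all genes were negative. After median-ratio scaling all 10 were negative with a median of -1.298 against -0.11, and 56.9% of all genes were negative. None of the 10 passed the adjusted threshold in limma, against 6 genes, or 0.0888%, of all genes. At an unadjusted p under 0.05, Hspa5, Ddit3, Herpud1 and Atf4 were counted, against 4.01% of all genes. The FPKM of FET-chow mice lay below that of all IVF-chow mice in Hspa5 and Herpud1 alone, against 2.56% of all genes. After the scaling the groups did not overlap in 6 of the 10 (Hspa5, Hsp90b1, Pdia3, Pdia4, Pdia6 and Ddit3), against 8.07% of all genes. The FPKM count of 2 rests in part on 1 library: without IVF-chow mouse 2, the lowest IVF-chow mouse in 8 of the 10 genes on that scale, it was 8, against 26.0% of all genes without that mouse. The largest values after Hspa5 and Herpud1 were those of Atf4 at -1.85 (SE 0.92) and Ddit3 at -1.81 (SE 0.71), both with an adjusted p of 1 in limma. Without IVF-chow mouse 4 the values were -0.74 for Herpud1, -1.03 for Atf4 and -1.14 for Ddit3, all nearer 0, whereas Hspa5 was little moved at -2.30. Without IVF-chow mouse 2 they were -2.55 for Herpud1, -2.73 for Atf4 and -2.62 for Ddit3, all further from 0 than Hspa5 at -2.01. Without FET-chow mouse 2, Ddit3 was at -1.26, so the order of these genes, the place of Hspa5 included, is not settled. This comparison uses the same FET-chow mice as the one against NC-chow, so the values of both are not independent.

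In IVF-chow against NC-chow livers, none of the 10 genes stood apart in FPKM. Their log2 fold changes ran from -0.42 (Pdia6) to 0.78 (Ddit3, and 0.11 without IVF-chow mouse 4 or 1.58 without IVF-chow mouse 2), with a median of -0.26 where that of all genes was -0.25. Of the 10 genes, 8 had a negative value in FPKM, against 68.8% of all genes. The adjusted p was 1 for each of them in limma, 0.0592% of all genes passed the adjusted threshold, and none of the 10 had an unadjusted p under 0.05, against 4.07% of all genes. No gene of the 10 had its IVF-chow mice below all NC-chow mice in FPKM (5.46% of all genes) or after median-ratio scaling (8.53%). On the scaled values, 9 of the 10 were positive, where 49.2% of all genes were negative, with a median of 0.17 against 0.01. The only gene whose groups did not overlap on that scale was Ddit3, higher in IVF-chow mice, against 7.25% of all genes. Scaled Ddit3 was 2.70, 2.43 and 2.55 in NC-chow and 4.03, 6.87 and 8.93 in IVF-chow mice, a log2 fold change of 1.04 (limma, SE 0.52, adjusted p = 0.901). The spread was wide on FPKM: the 95% confidence interval of Hspa5 ran from -1.79 to 1.13, which leaves room for changes in either direction.

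The order of the levels differed between groups. In NC-chow livers the mean FPKM ran from Calr (104) over Hsp90b1 (48.1), Pdia3 (39.4), Atf4 (22.3), Pdia4 (16.3), Herpud1 (13.0), Hspa5 (11.5), Pdia6 (9.02) and Xbp1 (6.69) to Ddit3 (3.46). Neighbours in this order overlapped between mice except for Calr over Hsp90b1 and Pdia3 over Atf4. In IVF-chow livers Calr (118), Hsp90b1 (43.8), Pdia3 (34.5) and Atf4 (28.3) again led, and Hspa5 (8.88) and Pdia6 (6.85) came last. In FET-chow livers Calr (92.2), Hsp90b1 (18.6) and Pdia3 (12.8) led, Xbp1 (5.43), Pdia4 (5.39), Atf4 (5.22) and Pdia6 (3.67) followed, and Herpud1 (1.76), Ddit3 (1.45) and Hspa5 (1.05) came last. The mean of Hspa5 was below that of Ddit3 in both IVF-chow and FET-chow livers, though Hspa5 was the higher gene in mouse 2 of each group. These are orders of means, and only the comparisons given above were tested.

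A ratio of 2 genes within a library cancels a factor shared by that library, except for the added 1. That 1 weighs on low genes such as Ddit3, Herpud1 and Sel1l, and on Hspa5 in FET-chow mice. Between a member and a partner, 6 ratios were formed on log2(FPKM + 1) and compared in the 3 comparisons, which gives 18 two-sided exact permutation tests with a smallest possible p of 0.1. Herpud1 over Sel1l, an adaptor of the same ligase complex, was 1.06, 2.71 and 1.01 in NC-chow, 1.301, -0.18 and 3.15 in IVF-chow, and -0.63, 0.24 and 0.81 in FET-chow mice. All FET-chow mice were below all NC-chow mice, a difference of -1.45 (exact permutation p = 0.1, and 0.9 after Benjamini-Hochberg adjustment), or -0.90 without NC-chow mouse 5. Ddit3 over Atf4 was -2.04, -2.59 and -2.40 in NC-chow and -1.22, -1.21 and -1.66 in IVF-chow mice, higher by 0.98 in the latter without overlap (exact permutation p = 0.1, adjusted p = 0.9). In FET-chow mice it was -2.71, 0.45 and -1.72, which spans both other groups. With 0.1 added in place of 1, the NC-chow and FET-chow groups overlapped in Herpud1 over Sel1l, at 1.24, 3.16 and 1.13 against -0.96, 0.36 and 1.31, so that this separation depends on the pseudocount. The Ddit3 over Atf4 separation held with 0.1 added, and the difference of Ddit3 over Atf4 between FET-chow and IVF-chow mice turned to -0.88. The other 4 ratios (Hsp90b1 over Hspa5, Calr over its membrane-bound relative Canx, Pdia4 over Pdia3 and Pdia6 over the main isomerase P4hb) overlapped in all 3 comparisons. Hsp90b1 over Hspa5 averaged 3.04 ± 1.35 (SD, n = 3) over the FET-chow and 1.94 ± 0.90 (SD, n = 3) over the NC-chow mice. With 0.1 added, this ratio was 3.91, 5.47 and 2.11 in FET-chow and 2.74, 0.96 and 2.38 in NC-chow mice, which still overlapped.

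**Figure D4:**
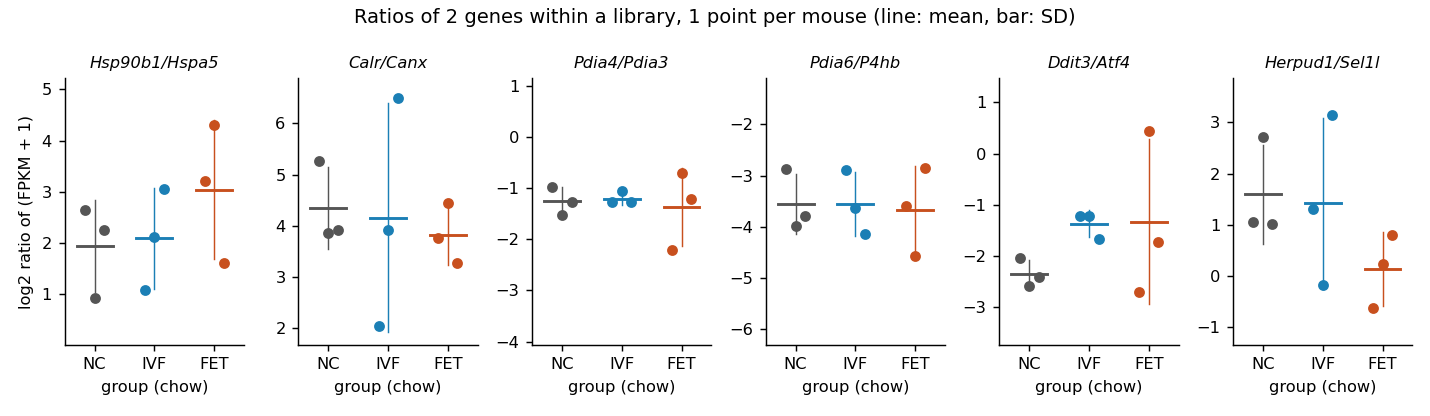
The 6 within-library log2 ratios of (FPKM + 1), with 1 point per mouse, the mean as a line and the SD as a bar; all panels span the same range of log2 units. The FET-chow points of Herpud1/Sel1l lie below the NC-chow points with 1 added (they overlap with 0.1 added), and the IVF-chow points of Ddit3/Atf4 lie above the NC-chow points.

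Correlations among the 10 genes over the 9 mice are given as a description that includes the group differences and the scale of each library. On FPKM, the Pearson r of log2(FPKM + 1) was positive in 44 of the 45 pairs, with a median of 0.67, where 86.4% of all pairs of tested genes were positive with a median of 0.46. After median-ratio scaling it was positive in 42 pairs, with a median of 0.48 where 51.3% of all pairs were positive with a median of 0.015. It had a highest value of 0.93 between Pdia3 and Pdia4 and a lowest of -0.35 between Calr and Atf4. The genes most like the mean of the 10 were Sec11a (r = 0.98), a subunit of the signal peptidase, followed by Ap4s1, Erlin1, Mterf3 and Coq10b (each r = 0.97) on FPKM, and Erlin1 (r = 0.96), Sbds (r = 0.94), Rhoa (r = 0.94), Pold2 (r = 0.93) and Mis12 (r = 0.92) after the scaling.

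The wider machinery was read from 7 lists written from known function, which include the 10 genes. List counts and medians therefore reuse the values of these members. None of the listed genes passed the adjusted threshold of limma in any of the 3 comparisons. In FET-chow against NC-chow, an unadjusted p under 0.05 was reached by 3 of the ER chaperones, 4 of the disulfide isomerases, 2 genes of the ATF4 and CHOP arm, 1 of ER-associated degradation and 1 of the translocon, all lower, against 12.0% of all genes in either direction. Hspa5, Pdia4, Atf4 and Herpud1 are among them. FET-chow mice lay below all NC-chow mice in FPKM in 5 of 17 tested ER chaperones and 10 of 17 disulfide isomerases. The same held for 1 of 5 genes of the sensor list and 4 of 12 of the ATF4 and CHOP arm. It also held for 2 of 18 genes of ER-associated degradation, 3 of 17 of the translocon and 6 of 13 cytosolic heat shock proteins. The share over all genes was 17.1%. Hspa5, Hsp90b1, Pdia3, Pdia6, Atf4, Ddit3 and Herpud1 are counted here. After the scaling the counts, in the same order of lists, were 3, 6, 2, 1, 2, 3 and 2, against 12.7% of all genes. Hspa5, Pdia3 and Herpud1 are among those. In the other direction, no listed gene had its FET-chow mice above all NC-chow mice in FPKM. Few genes of any kind did: the share of all genes was 2.35% without NC-chow mouse 5, and it cannot be larger with all mice. After the scaling, 1 did in each of the ER chaperones, the disulfide isomerases, ER-associated degradation and the translocon. With scaling to nuclear protein-coding genes, the share of all genes in this direction was 9.99%. The counts of negative values below stand against 74.3% of all tested genes. Of 17 tested ER chaperones and co-chaperones, 16 had a negative log2 fold change in FET-chow against NC-chow, with a median of -1.15 (-0.67 after the scaling). The non-members furthest from 0 were Sdf2l1, a BiP co-factor, at -2.13, the BiP co-chaperone Dnajb11 at -1.56 and the secreted stress protein Manf at -1.40. Sdf2l1 was listed at 0 in FET-chow mice 2 and 4. Canx was the exception, at 0.14. Of 17 disulfide isomerases and oxidases, 16 were negative, with a median of -1.07 (-0.61 after the scaling). Tmx2 had -1.91, Selenof -1.41 and Pdia5 -1.38, while the abundant P4hb had -0.95 with overlapping groups. Tmx2 was listed at 0 in FET-chow mouse 2.

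The median of all genes was -0.46. Of 11 listed sensors and related factors, 5 were tested: Ern1, Creb3l3, Nfe2l1, Rtcb and the member Xbp1. Of the sensors IRE1, PERK and ATF6, only IRE1, through Ern1, is among these. Their median was -0.48 (-0.09 after the scaling). Creb3l3, the liver-enriched relative of ATF6, had -1.25, Ern1 had -0.73 and Nfe2l1 had -0.48. Of 24 listed genes of the ATF4 and CHOP arm, 12 were tested. All 12 were negative, with a median of -0.89 (-0.48 after the scaling). There, Cebpg, a partner of ATF4, had -1.47, Atf5 had -1.15 and Eif4ebp1 had -1.06. Of 18 genes of ER-associated degradation, 17 were negative with a median of -0.66 (-0.27 after the scaling), among them the lectin Os9 at -1.22, Ubxn4 at -1.17 and the ligase Syvn1 at -1.08. Of 17 genes of the translocon and signal peptide cleavage, 13 were negative, a share close to that of all genes, with a median of -0.47 (-0.06 after the scaling). Spcs2 had -1.41, the signal recognition particle receptor Srpr -1.33 and Sec11a -1.31, but Sec62 had 0.94 and Sec61g 0.89. Srpr was listed at 0 in FET-chow mouse 2, and its groups overlapped, while Sec11a was listed at 0 in FET-chow mouse 4.

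**Figure D5:**
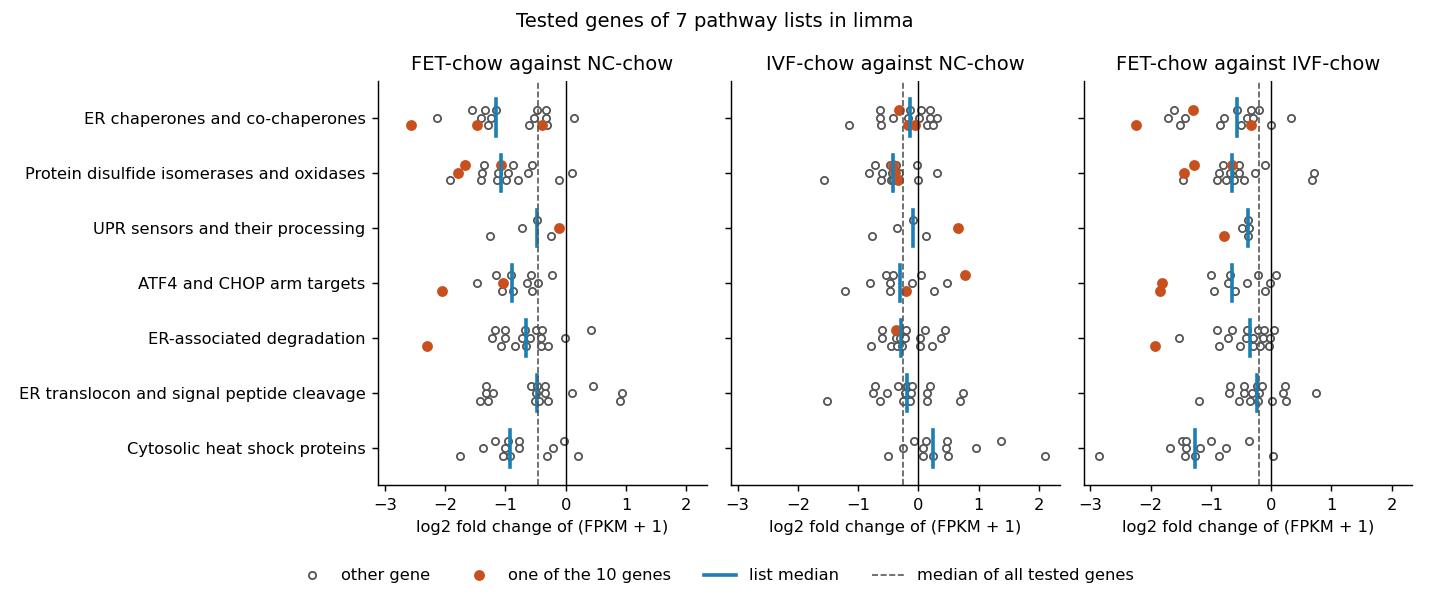
Log2 fold changes of (FPKM + 1) for the tested genes of 7 lists in the 3 comparisons, with the 10 genes as filled points, other genes as open points, list medians as vertical bars and the median of all tested genes as a broken line. In FET-chow against NC-chow the points of the ER chaperones and the disulfide isomerases lie almost wholly left of 0, and in IVF-chow against NC-chow the cytosolic heat shock proteins have the only list median right of 0 on this FPKM scale, where 6 of the 7 are right of 0 after median-ratio scaling.

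The cytosolic heat shock proteins, which answer misfolding outside the ER, were set beside them. Of 13 tested, 12 were negative in FET-chow against NC-chow, with a median of -0.92 (-0.37 after the scaling), Hspb1 having -1.76, Hspb8 -1.37 and Bag3 -1.18. Hspb1 was listed at 0 in FET-chow mouse 2, and its groups overlapped. In IVF-chow against NC-chow, 10 of the 13 were positive, where 68.8% of all genes were negative. Their median was 0.24 (0.54 after the scaling), and 2 of them were higher at an unadjusted p under 0.05 (4.07% of all genes in either direction). IVF-chow mice lay above all NC-chow mice in 1 of the 13 in FPKM and in 6 after the scaling, against 7.25% of all genes on the scaled values. The ER chaperones had a median of -0.13 (0.27 after the scaling) and the disulfide isomerases -0.42 (-0.13 after the scaling). The sign of the ER chaperone median thus depends on the scale. In FET-chow against IVF-chow, the median of the cytosolic heat shock proteins was -1.26, and those of the ER chaperones and the disulfide isomerases were -0.56 and -0.65. These medians stand beside one another as values, and their differences were not tested.

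Immune cells rich in ER were looked for through their markers. The immunoglobulin light chain gene Igkc had an FPKM between 9.59 and 15.2 in NC-chow, 4.42 and 53.5 in IVF-chow, and 1.90 and 20.1 in FET-chow mice. The heavy chain gene Ighm lay between 1.95 and 10.4, 0.320 and 9.46, and 0 and 2.13 in the same order of groups. The plasma cell marker Mzb1 and the B cell markers Cd79a, Cd79b and Ms4a1 were at 0 in all 3 FET-chow livers, but Mzb1 was also at 0 in every other mouse except NC-chow mouse 6 (0.735), Ms4a1 in NC-chow mouse 1 and all IVF-chow mice, and Cd79a and Cd79b in NC-chow mouse 1 and IVF-chow mice 2 and 3. Jchain, which joins immunoglobulin units in plasma cells, had 0.365, 0.358 and 1.15 in NC-chow, 0.0956, 0 and 0.716 in IVF-chow, and 0, 1.15 and 0.414 in FET-chow mice, so that these groups overlapped. The neutrophil markers, 6 of 6, were at 0 in the FET-chow livers, but also in IVF-chow mouse 3, and 2 of them (Ly6g and Mpo) were at 0 in all 9 mice. Their sum lay between 0.442 and 2.74 in NC-chow and 0 and 12.1 in IVF-chow mice. Of 8 pancreatic acinar markers, Cela1 alone reached a mean FPKM of 1. The summed FPKM of 8 Kupffer cell and macrophage markers was between 13.1 and 32.1 in NC-chow, 5.24 and 36.4 in IVF-chow, and 12.3 and 78.8 in FET-chow mice, FET-chow mouse 2 being the highest with Cd5l at 36.8 and Clec4f at 33.8. Over the 9 mice the sums were between 4.10 and 16.4 for 7 endothelial, 4.32 and 19.4 for 7 stellate, 1.55 and 17.0 for 6 cholangiocyte, 0.198 and 1.04 for 6 T and NK cell, and 78.0 and 849.9 for 5 erythroid markers. The part of these cells, and of the smaller FET-chow libraries, in the levels of the 10 genes was not tested.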

How the data were processed

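Per the labels and the paper's methods, liver RNA was extracted with TRIzol and sequenced on an Illumina Nova6000 system, and the reads were trimmed and mapped to the genome. The authors deposited FPKM values for 55335 Ensembl identifiers in 9 mice. The submitters' processing notes name FastQC 0.11.5, STAR 2.5.3a, StringTie 1.3.1c and DESeq2 1.16.1. The genome build, the annotation, the strandedness and the handling of reads that map to several places are not given in the sources used here. Symbols and positions came from GENCODE vM21 (GRCm38), which matched 55154 identifiers, and promoter windows from RefSeq (GRCm38.p6). A second Ddit3 identifier with an FPKM of at most 0.0114 was not used.

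The labels gave the groups, and the methods the diet and the sex. The table holds no counts, so limma 3.58.1 (R 4.3.3) was fitted on log2(FPKM + 1) for 6755 genes (mean FPKM over all mice of at least 1), with 1 model for the 3 groups, a variance trend, two-sided tests and Benjamini-Hochberg adjustment, where an adjusted p under 0.05 counts as changed. A fold change on this scale understates the change of low genes. Tested on simulated data, the fit returned the size of the added changes and called most of the very large ones but few of the smaller ones, so a missing call does not show that a gene did not differ. Ratios were compared by exact permutation tests (scipy 1.17.1). Depth was estimated from steps of up to 8 fragments with a tolerance of 2%. Between 37.8% and 46.7% of low values lay on a step, against 8.89% to 15.5% by chance, and these depths cover counting error only.

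The 10 genes, the lists and the alternatives were chosen with earlier results of these data known. Named are the 10 genes, per list the 3 tested non-members with the largest absolute log2 fold change in FET-chow against NC-chow, genes passing the adjusted threshold, leading markers, and the genes most like the mean of the 10. Of the marker genes listed, 1 is not reported here, nor is the sum of its list. Canx, P4hb, Sec62 and Sec61g were picked after seeing their values. The alternatives were another pseudocount, other filters and scalings, a fit of only the groups compared, no variance trend, the mouse number as a replicate block, NC-chow mouse 1 as the only control and leaving out each mouse.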

Additional observations from a re-analysis of the deposited data

How the results depend on the processing

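None of the 10 genes passed the adjusted threshold in any comparison under any alternative run with limma. In FET-chow against NC-chow the adjusted p of Hspa5 was 0.0924 and ranged from 0.114 (without NC-chow mouse 1) to 1 (NC-chow mouse 1 as the only control), with a log2 fold change from -3.34 to -2.04. At a mean FPKM of at least 10, Hspa5, Pdia6, Xbp1 and Ddit3 were not tested. Leaving out both mice 2 of IVF-chow and FET-chow was chosen after the data had been seen. Outside the fits that leave out 1 mouse, and over the alternatives that can move a fold change, the direction held in 50 of 50 member values in FET-chow against IVF-chow, 54 of 60 in FET-chow against NC-chow and 34 of 60 in IVF-chow against NC-chow; the filters, the variance trend, the fit of 2 groups and the block leave fold changes as they are. Where a value moved, the cause was not tested. Depth limits the low members most, with 0 to 17 estimated fragments for Hspa5, Ddit3 and Herpud1 in FET-chow livers. Single FET-chow values of other members were as thinly covered, with 8 and 17 fragments for Pdia4 in mice 2 and 4 and 10 for Atf4 in mouse 3.

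Of all genes, 16 changed in FET-chow against NC-chow, 5 at a mean FPKM of at least 10, 6 with NC-chow mouse 1 as the only control, and 0 with no filter, with no variance trend, with only the 2 groups compared or without both mice 2; leaving out 1 mouse gave 1 to 83. In IVF-chow against NC-chow, 4 changed, 2 at a mean FPKM of at least 10 and with NC-chow mouse 1 only, 12 without both mice 2, and 0 with median-ratio scaling, quantile normalization, scaling to nuclear protein-coding genes, a pseudocount of 0.1, no filter, no trend or only the 2 groups compared; leaving out 1 mouse gave 0 to 24. In FET-chow against IVF-chow, 6 changed, 0 with no filter, no trend, only the 2 groups compared or without both mice 2, and leaving out 1 mouse gave 0 to 10. With the mouse number as a replicate block it was 2 genes and 0 of the 10. After group means were taken off, same-numbered mice correlated at -0.13, 0.02 and -0.26 in FPKM. These correlations carry the scale of each library, so they cannot decide whether the numbers pair the mice.

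The number of the 10 genes whose groups did not overlap was 7 in FET-chow against NC-chow, 3 with median-ratio scaling (12.7% of all genes) or scaling to nuclear protein-coding genes (11.5%), 9 with NC-chow mouse 1 as the only control (23.8% of all genes), and 7 to 8 when 1 mouse was left out (17.6% to 40.3% of all genes). It was 0 in IVF-chow against NC-chow, 1 with either scaling (higher, 7.25% and 4.87%), 2 with NC-chow mouse 1 only (10.1% of all genes), and 0 to 2 with 1 mouse left out, the 2 being lower without IVF-chow mouse 4 (26.5%) or higher without IVF-chow mouse 2 (19.8%). It was 2 in FET-chow against IVF-chow, 6 with median-ratio scaling (8.07%), 4 with scaling to nuclear protein-coding genes (6.01%), and 2 to 8 with 1 mouse left out, the 8 being without IVF-chow mouse 2 (26.0% of all genes) and a 5 without FET-chow mouse 3 (11.8%). With a pseudocount of 0.1, only 1 in place of 2 ratio comparisons did not overlap, Herpud1 over Sel1l in FET-chow against NC-chow being lost, and Ddit3 over Atf4 in FET-chow against IVF-chow turned to -0.88.

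In FET-chow against NC-chow the sign turned for Calr and Xbp1, at 0.16 and 0.29 with median-ratio scaling, 0.023 and 0.27 with quantile normalization, and 0.24 and 0.36 with scaling to nuclear protein-coding genes; leaving out 1 mouse gave -0.85 to 0.22 for Calr and -0.47 to 0.47 for Xbp1. In IVF-chow against NC-chow, median-ratio scaling gave 0.13 for Hspa5, 0.27 for Hsp90b1, 0.40 for Calr, 0.056 for Pdia3, 0.078 for Pdia4, 0.20 for Atf4 and 0.017 for Herpud1. Quantile normalization gave 0.15 for Hspa5, 0.22 for Hsp90b1, 0.31 for Calr, 0.0046 for Pdia3, 0.062 for Pdia4 and 0.17 for Atf4. Scaling to nuclear protein-coding genes gave 0.03 for Hspa5, 0.16 for Hsp90b1, 0.28 for Calr and 0.093 for Atf4. Without both mice 2, it was 0.086 for Hsp90b1, 0.53 for Calr, 0.045 for Pdia3, 0.14 for Pdia4, 0.68 for Atf4 and 0.21 for Herpud1. With NC-chow mouse 1 only, it was -0.50 for Xbp1, 0.39 for Atf4 and 0.12 for Herpud1. Leaving out 1 mouse gave -0.60 to 0.16 for Hsp90b1, -0.58 to 0.53 for Calr, -0.90 to 0.045 for Pdia3, -0.81 to 0.14 for Pdia4, -0.054 to 1.71 for Xbp1, -1.02 to 0.68 for Atf4 and -1.57 to 0.24 for Herpud1, and in FET-chow against IVF-chow -0.92 to 0.28 for Calr.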
